A study of Mus musculus with 14 samples.

Results

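Isolated putative enhancers are the regions of the enhancer list with no other listed enhancer within 50 kb, measured from edge to edge. Of 32965 putative enhancers, 3752 met this rule, which is 11.4% (Wilson 95% confidence interval 11.0 to 11.7%). The other 29213 enhancers served for comparison. The rule used only the positions of the enhancers relative to each other.

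Trimethylation of lysine 4 of histone H3 (H3K4me3) was measured by chromatin immunoprecipitation and sequencing in immortalized mouse embryo fibroblasts (iMEF). In these cells the endogenous Ash2l gene had been inactivated by a tamoxifen-dependent Cre recombinase, and a lentiviral human ASH2L with an N-terminal FKBP12 tag carrying the F36V change and an HA tag took its place. The compound dTAG links this tag to the E3 ubiquitin ligase subunit Cereblon, so that the fusion protein is degraded. The 12 H3K4me3 libraries came in 6 groups of 2 (untreated cells and dTAG for 30 min, 2 h, 4 h, 8 h and 16 h), and the 2 input libraries came from untreated cells and cells treated for 16 h. The cells were a single clone. Enhancers had been defined in control cells only, from H3K4me1, H3K27ac and accessible chromatin, without regions within 1 kb of a transcription start site (TSS). The H3K4me3 peaks were collected over all samples. Both lists hold positions and no value for any library. Replicate error and depth could therefore not be assessed from them, and changes with dTAG at these enhancers were not analysed here. All positions refer to mouse genome build GRCm38 (mm10) and count from 1.

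Enhancers are stretches of DNA that bind transcription factors and raise the activity of promoters, which can lie close by or far along the chromosome. Nucleosomes next to active enhancers usually carry H3K4me1 and H3K27ac, whereas H3K4me3 is typical of active promoters. ASH2L is a core subunit of the KMT2 methyltransferase complexes that place these methyl groups on H3K4. Several enhancers often lie close together around genes that define a cell type.

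The central 200 bp of 6 isolated enhancers are printed to show what these regions look like at the extremes of the set. The first 3 lay farthest from any other enhancer. The next 3 are from the 7 isolated enhancers that held 3 matches, the highest number found, to TGANTCA, the pattern used here for AP-1. FOS and JUN proteins bind the forms TGACTCA and TGAGTCA, while the pattern also counts TGAATCA and TGATTCA. Of these 7 enhancers, the 3 printed lay farthest from another enhancer, and the matches are in capitals. Sequences are from the plus strand, 5′ to 3′.
Pcdh11x, chrX:120292790-120292989: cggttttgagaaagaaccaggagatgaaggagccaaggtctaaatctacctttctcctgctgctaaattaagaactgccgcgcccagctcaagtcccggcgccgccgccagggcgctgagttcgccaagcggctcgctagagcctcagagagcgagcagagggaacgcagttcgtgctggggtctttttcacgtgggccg
Pet2, chrX:89438977-89439176: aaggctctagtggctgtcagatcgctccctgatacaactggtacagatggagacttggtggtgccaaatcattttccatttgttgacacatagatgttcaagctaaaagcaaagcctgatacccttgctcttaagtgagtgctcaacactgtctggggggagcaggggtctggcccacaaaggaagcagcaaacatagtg
Mettl4, chr17:94737474-94737673: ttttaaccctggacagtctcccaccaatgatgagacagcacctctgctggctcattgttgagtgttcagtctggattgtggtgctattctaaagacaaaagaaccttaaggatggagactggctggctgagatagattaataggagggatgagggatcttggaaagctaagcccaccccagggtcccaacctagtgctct
Msr1, chr8:39620392-39620591: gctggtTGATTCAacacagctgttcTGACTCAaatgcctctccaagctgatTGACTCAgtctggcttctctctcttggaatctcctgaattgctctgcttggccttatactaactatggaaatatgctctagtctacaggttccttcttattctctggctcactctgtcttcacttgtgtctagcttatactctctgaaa
Lrriq3, chr3:155370868-155371067: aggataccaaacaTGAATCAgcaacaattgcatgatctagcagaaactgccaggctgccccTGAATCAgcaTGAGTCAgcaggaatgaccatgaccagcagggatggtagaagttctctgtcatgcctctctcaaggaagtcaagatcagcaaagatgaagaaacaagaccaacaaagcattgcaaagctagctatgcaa
Ccdc130, chr8:84336381-84336580: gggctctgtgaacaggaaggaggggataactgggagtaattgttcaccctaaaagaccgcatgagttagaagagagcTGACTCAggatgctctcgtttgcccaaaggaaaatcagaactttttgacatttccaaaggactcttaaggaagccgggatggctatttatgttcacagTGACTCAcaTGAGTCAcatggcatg

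Each enhancer is named after the protein-coding gene with the nearest TSS, which does not show that it acts on that gene. The Pcdh11x enhancer (491 bp, chrX:120292644-120293134) lay 9245 kb from the next enhancer on its nearer side and 12404 kb on the other. It was in an intron of Pcdh11x, a protocadherin gene, 2.56 kb from its nearest TSS, and overlapped an H3K4me3 peak of 778 bp. Its central 200 bp had a GC content of 59%. The Pet2 enhancer (418 bp) also lay on chromosome X, outside coding genes, with the nearest other enhancer at 4354 kb and the nearest H3K4me3 peak at 562 kb. The Mettl4 enhancer (268 bp) was the last one on chromosome 17, in an intron of a gene for an adenine methyltransferase, and its only neighbour lay 3270 kb away. Next in this order were the enhancers at Slitrk5 and Slitrk1 on chromosome 14, which encode neuronal transmembrane proteins that organise synapses. They lay 2702 kb apart with no enhancer between them, and on its other side the one at Slitrk1 had a neighbour at 2403 kb. The Slitrk5 enhancer was 167 bp wide and overlapped a 2398 bp H3K4me3 peak, whereas the 217 bp enhancer at Slitrk1 was 204 kb from the nearest peak.

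Of the 3 enhancers printed for their AP-1 matches, that at Msr1 was in an intron of this macrophage scavenger receptor gene and 614 kb from the nearest H3K4me3 peak. Repeats made up 61.5% of its central 200 bp. The enhancer nearest to Lrriq3 lay 277 kb from the TSS, with 55.5% repeats. That nearest to Ccdc130 was 775 bp wide, had 30 coding genes within 500 kb and no annotated repeat in its centre.

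Most isolated enhancers were only moderately isolated. The distance to the nearest other enhancer had a median of 87.9 kb (quartiles 64.6 and 139 kb), against 4.98 kb (0.523 and 13.9 kb) for the other enhancers. These values describe the rule and are not a result. Of the 3752, 2183 (58.2%) had their nearest neighbour at 50 to 100 kb, 1040 (27.7%) at 100 to 200 kb and 529 (14.1%) beyond 200 kb, including 110 beyond 500 kb. The neighbour on the other side was at a median of 208 kb.

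**Figure D1:**
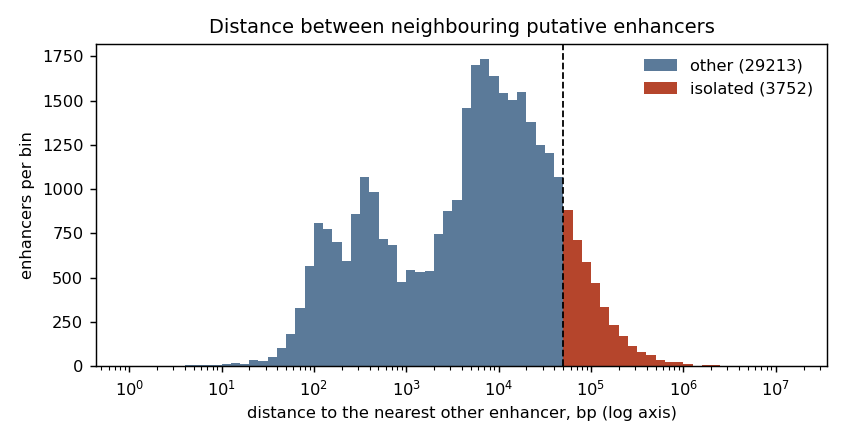
Number of putative enhancers (vertical axis) by distance to the nearest other enhancer in bp plus 1 (horizontal log axis), with the 3752 isolated enhancers in red, the 29213 others in blue and the 50 kb limit as a dashed line. The distribution runs on without a break at the limit, 706 isolated enhancers lie within 50 to 60 kb, and the other enhancers form 1 group of distances under 1 kb and 1 around 10 kb.

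The limit of 50 kb thus split a continuous range. Just inside it were enhancers at Pop5 and Cabp1 on chromosome 5, which were each other's nearest neighbours at 50005 bp. Both overlapped an H3K4me3 peak and had 31 and 32 coding genes within 500 kb. The third was in Prkag2, at 50013 bp. Just outside were an enhancer near Gpd1 on chromosome 15 at 49995 bp and a pair in Yeats2 on chromosome 16, which were 49976 bp apart.

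Isolated enhancers were slightly narrower than the others. Their median width was 368 bp (quartiles 247 and 575 bp, n = 3752), against 410 bp (268 and 662 bp, n = 29213). The 95% intervals of these medians, 358 to 380 bp and 406 to 414 bp, did not overlap. The difference of the medians was -42 bp, and it was negative on 18 of 20 chromosomes, with chromosomes 14 and X as the exceptions. Enhancers under 300 bp made up 37.6% of the isolated and 31.3% of the other enhancers, and those over 1000 bp made up 8.53 and 10.5%. Regions are not replicates of a condition and neighbouring ones are not independent. No test was therefore run in this or the following comparisons. The intervals cover sampling of regions only, and the number of chromosomes with the same direction shows how evenly a difference was spread.

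The 5 widest isolated enhancers were found at Anp32a (3016 bp), Tgif2 (2954 bp), Nsd2 (2897 bp), Tgfb1 (2619 bp) and Cbx7 (2573 bp). Nsd2 encodes a histone H3K36 methyltransferase, Tgfb1 the growth factor TGF-β1, Tgif2 a repressor in the TGF-β pathway and Cbx7 a Polycomb protein. The centres of the first 4 were within 1.5 kb of a coding TSS, and all 4 overlapped an H3K4me3 peak. The regions at Anp32a, Tgif2 and Nsd2 contained that TSS, which lay 1.118, 1.435 and 0.434 kb from their centres. The enhancer at Cbx7 was intronic, 17.1 kb from the nearest peak. All 5 had their nearest neighbour at 134 kb or less, and 10 to 29 coding genes lay within 500 kb of them.

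The distance to the nearest H3K4me3 peak was larger for isolated enhancers. Its median was 53.7 kb (quartiles 13.7 and 158 kb), against 36.7 kb (12.9 and 91.9 kb) for the others, and it was higher on 19 of 20 chromosomes, chromosome 17 being the exception (29.8 against 38.2 kb). The interval of the isolated median was 50.4 to 56.9 kb, that of the other median 36.0 to 37.4 kb. The lower quartiles were close and the upper ones far apart, so the groups differed mainly in their distant members. A peak within 10 kb was found for 21.4% of isolated and 20.9% of other enhancers, with 10 chromosomes in each direction. No peak within 100 kb was found for 1328 isolated enhancers (35.4%, interval 33.9 to 36.9%), against 23.2% of the others. None within 500 kb was found for 260 (6.93%), against 1.44%. Both of these shares were higher for isolated enhancers on all 20 chromosomes. The rule keeps every other enhancer more than 50 kb away, and with it the peaks that lie on other enhancers. Part of the difference in peak distance can therefore follow from the selection, and the size of this part was not tested.

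**Figure D2:**
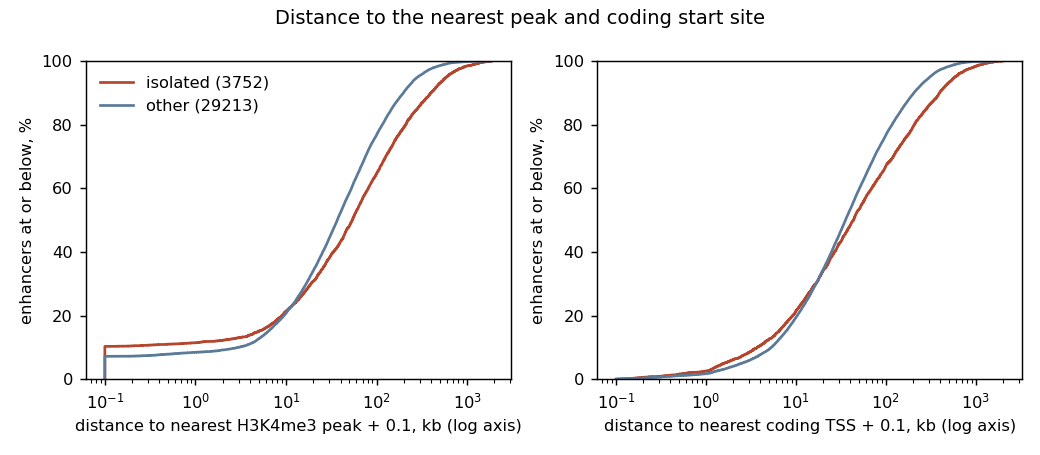
Cumulative share of enhancers in % (vertical axes) by distance in kb plus 0.1 (horizontal log axes) to the nearest H3K4me3 peak (left) and to the nearest coding TSS (right), for 3752 isolated (red) and 29213 other enhancers (blue). The red curves start above the blue ones and cross below them at roughly 10 to 20 kb, so isolated enhancers were more frequent at both ends of the range.

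The 5 isolated enhancers farthest from a peak were nearest to the genes Efna5 (1876 kb), Sel1l (1826 kb), Gm10800 (1732 kb), Grik2 (1715 kb) and Pcdh10 (1710 kb). They were 145 to 544 bp wide, lay outside coding genes and had 0 coding gene starts within 500 kb. Those at Efna5 and Sel1l were also among the 3 farthest from a coding TSS, at 1877 and 1826 kb. Farthest of all was an enhancer on chromosome 4, at 2012 kb from the nearest TSS of a protein-coding transcript. This TSS was of Ptprd, a receptor tyrosine phosphatase gene. Gene counts used the outer 5′ end of each coding gene instead, and by this count 1 gene start lay within 500 kb of the enhancer. This enhancer was 253 bp wide, had a GC content of 67.5% in its centre, and overlapped a 331 bp H3K4me3 peak.

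At the near end, overlap with an H3K4me3 peak was more frequent among isolated enhancers. A peak was overlapped by 386 of them (10.3%, interval 9.36 to 11.3%) and by 2093 others (7.16%, 6.87 to 7.47%), and the share was higher on 18 of 20 chromosomes. These 386 enhancers differed from the remaining 3366 isolated ones. Their median width was 617 against 350 bp, their median GC content 55.5 against 48.5%, and their median distance to a coding TSS 6.64 against 49.7 kb. They had a median of 10 coding genes within 500 kb, against 6. The other enhancers that overlapped a peak were wider still, at 734 bp, with a GC content of 53.5%.

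The overlap was related to annotated start sites. A TSS of any gene type in the annotation used here lay within 1 kb of the centre of 334 isolated enhancers (8.90%) and 2061 others (7.06%). Under this annotation the definition of the list would have removed them. A wide region can also hold a TSS that is more than 1 kb from its centre. Enhancers counted below as beyond 1 kb can therefore still include promoter regions. Within this subset 151 isolated enhancers (45.2%) and 30.6% of the others overlapped a peak, with intervals that did not overlap. Among enhancers with every TSS more than 5 kb away, 126 of 2705 isolated enhancers (4.66%, interval 3.93 to 5.52%) and 3.89% of the others (3.64 to 4.16%) did so. With every TSS more than 1 kb away the shares were 6.88% (6.07 to 7.77%) and 5.38% (5.12 to 5.66%). The intervals were thus apart within 1 kb of a TSS and beyond 1 kb, and overlapped beyond 5 kb.

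The widest overlaps with a peak, in bp, were 3016 at Anp32a, 2552 at Tgfb1 and 2478 at Ptprg, another receptor tyrosine phosphatase gene. All 3 had their centre in an intron, within 1.5 kb of the TSS. The Anp32a and Ptprg enhancers were wholly inside peaks of 4891 and 4152 bp.

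For peaks of 2 kinds the gap between isolated and other enhancers differed in size. To the nearest peak within 1 kb of a coding TSS, isolated enhancers had a median distance of 76.5 kb, against 55.2 kb. To the nearest peak away from all TSSs the medians were 193 and 112 kb, and this distance was larger for isolated enhancers on all 20 chromosomes. Some of these peaks lie on other listed enhancers, which the rule keeps more than 50 kb away. How much of the gap follows from the rule was not tested.

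The nearest coding TSS was at a median of 43.4 kb from isolated enhancers (quartiles 12.3 and 158 kb), against 35.4 kb (13.3 and 92.7 kb) from the others. This difference was smaller and less even than that for peaks, with a higher value on 15 of 20 chromosomes. With a limit of 25 kb in place of 50 kb it shrank to 1.51 kb. A TSS within 10 kb was present for 21.6 and 19.5% of isolated and other enhancers. TSSs were more than 100 kb away for 32.9 and 23.3%, and more than 500 kb away for 6.80 and 1.69%, both in the same direction on all 20 chromosomes. When TSSs of all gene types were counted, the medians were 13.6 and 12.5 kb.

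By location, 1795 isolated enhancers (47.8%) had their centre in a coding gene, against 52.3% of the others. Introns held 44.0 and 49.3%, exons 3.81 and 3.06%. Isolated enhancers lay within genes less often on 18 of 20 chromosomes. The nearest coding gene was the gene around the enhancer for 38.5% of isolated and 43.1% of other enhancers.

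The nearest coding gene had an H3K4me3 peak within 1 kb of a TSS for 2857 isolated enhancers (76.1%, interval 74.8 to 77.5%), against 83.1% (82.7 to 83.6%) of the others. The share was lower on all 20 chromosomes. The genome-wide reference is 12801 coding genes with such a peak among 21670.

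Within the isolated set the values changed with the degree of isolation. From 50 to 100 kb, over 100 to 200 kb, to beyond 200 kb, the median distance to a peak rose from 43.6 to 59.7 and 157 kb, and that to a coding TSS from 33.6 to 51.3 and 123 kb. The median number of coding genes within 500 kb was 7, 6 and 3. Median width fell from 396 to 342 and 312 bp. The share inside coding genes was 51.7, 46.8 and 34.0%, and the share whose nearest gene had a peak was 77.9, 75.3 and 70.7%. Enhancers with their neighbour at 50 to 100 kb were thus close to those with one at 10 to 50 kb in TSS distance (32.6 kb) and gene number (7). Overlap with a peak was highest at 50 to 100 kb, at 11.7%, and 8.27 and 8.32% in the more isolated classes.

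**Figure D3:**
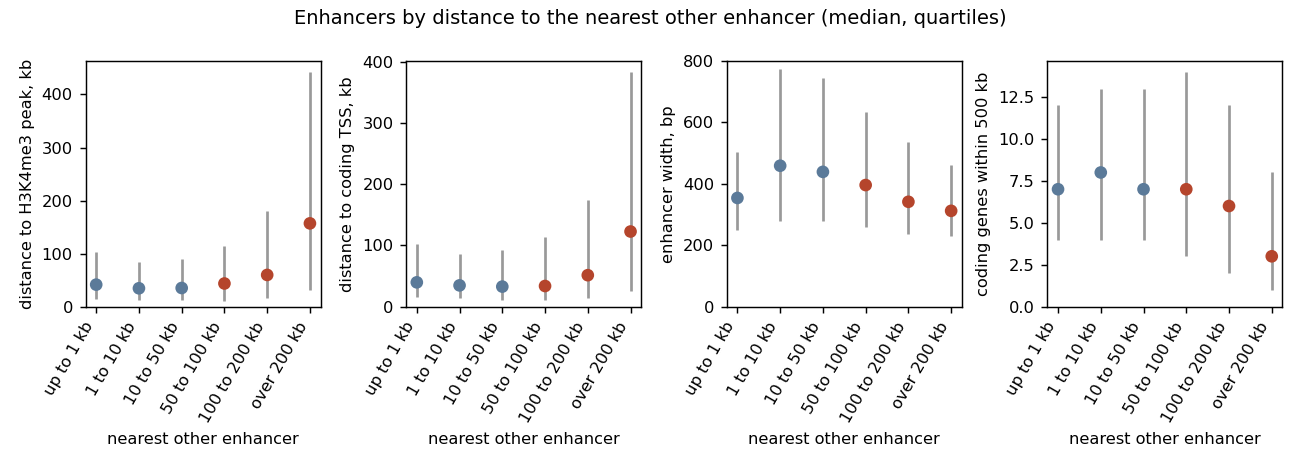
Median (points) and quartiles (bars) of distance to an H3K4me3 peak in kb, distance to a coding TSS in kb, width in bp and number of coding genes within 500 kb, in 6 classes of distance to the nearest other enhancer, with isolated classes in red and others in blue. Beyond 200 kb the distances rise to medians of 157 and 123 kb and the gene number falls to 3, while the width is also low, at 354 bp, for enhancers within 1 kb of another.

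Width did not fall along the whole range. Enhancers within 1 kb of another one had a median of 354 bp, below the 459 bp at 1 to 10 kb. A region listed in pieces counted as several enhancers here, and such pieces were therefore not isolated. When enhancers within 5 kb of each other were merged, 4716 regions were isolated. The median widths were then 452 bp for isolated and 654 bp for other regions. These widths include the unlisted stretches between merged enhancers.

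Gene density around isolated enhancers was spread more widely than around the others. Within 500 kb of the centre there were a median of 6 coding gene starts (quartiles 2 and 12), against 7 (4 and 13). The number of H3K4me3 peaks in the same window was 8 against 11. No coding gene start lay in the window of 302 isolated enhancers (8.05%, interval 7.22 to 8.96%), against 2.71% of the others. More than 20 lay in that of 487 (13.0%, 11.9 to 14.1%), against 11.2%. Isolated enhancers were therefore more frequent at both ends, although the gene-rich end was higher on only 14 of 20 chromosomes, against 19 of 20 for the empty windows.

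Read by gene density, isolated enhancers made up 19.3% of all enhancers with 0 to 2 coding genes within 500 kb, 10.1% with 3 to 5, 8.87% with 6 to 10, 9.30% with 11 to 20 and 13.0% with more than 20. In the gene-poorest class the median distance to a peak was 234 kb for isolated and 125 kb for other enhancers. At 6 to 10 genes the values were 40.9 and 39.1 kb, and at 11 to 20 genes both were 22.6 kb. In the gene-richest class the direction turned, with 9.38 kb for isolated and 12.3 kb for other enhancers. The overall difference thus had the direction of the gene-poor classes and not that of the gene-richest one. The TSS distance behaved likewise, at 270 against 165 kb in the poorest and 7.29 against 11.1 kb in the richest class.

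**Figure D4:**
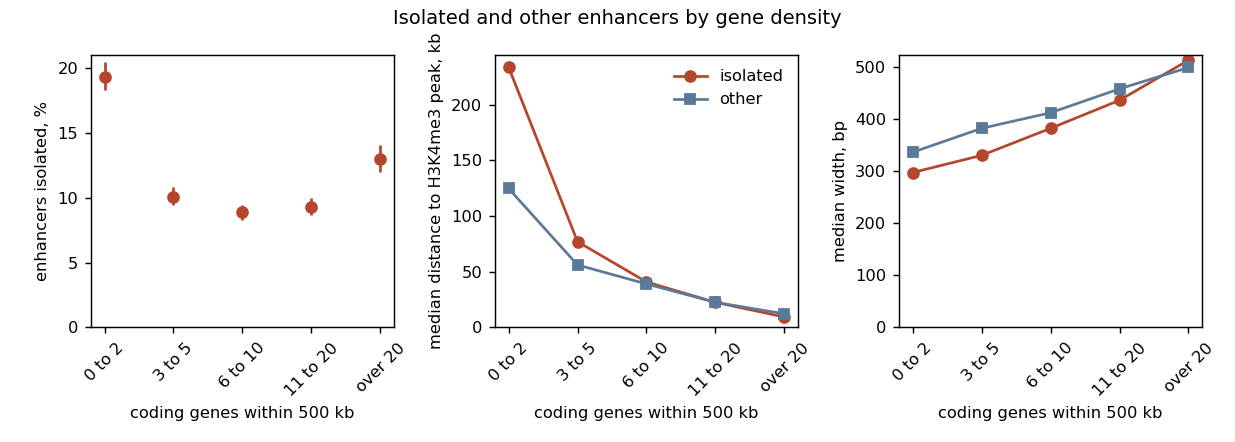
Share of enhancers that are isolated in % with Wilson 95% intervals (left), median distance to an H3K4me3 peak in kb (middle) and median width in bp (right), by number of coding genes within 500 kb, for isolated (red) and other enhancers (blue). The isolated share is highest at 0 to 2 genes (19.3%) and rises again above 20 genes (13.0%), where isolated enhancers are nearer to peaks and about as wide as the others.

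Width followed gene density in both groups. Isolated enhancers had a median width of 298 bp in the gene-poorest and 514 bp in the gene-richest class, against 337 and 500 bp for the others. The share whose nearest gene had a peak was lower for isolated enhancers in each of the 5 classes, from 81.4 against 87.8% at 0 to 2 genes to 69.4 against 77.3% above 20 genes.

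The isolated enhancers with the most genes around them were those at Trpm4 on chromosome 7, with 73 coding gene starts within 500 kb, and at Dlg4 on chromosome 11 and Gm20481 on chromosome 17, with 67 each. Trpm4 encodes a cation channel and Dlg4 the postsynaptic scaffold protein PSD-95. The Dlg4 enhancer was 1213 bp wide and overlapped a 3474 bp H3K4me3 peak, whereas that at Trpm4 (952 bp) was 18.5 kb from the nearest peak.

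Chromosome X had the highest isolated share, with 126 of its 500 enhancers (25.2%, interval 21.6 to 29.2%). The share on autosomes was between 8.54% on chromosome 15 and 12.5% on chromosome 2. Chromosome X also had the fewest enhancers, 2.92 per Mb against 10.8 to 17.3 per Mb on autosomes, and the fewest isolated ones, 0.737 per Mb against 1.12 to 1.85. Isolated X-linked enhancers were 308.5 bp wide in the median, and the other X-linked enhancers 302.5 bp. Their median distances to a peak were 40.7 and 25.4 kb.

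The 3752 isolated enhancers were assigned to 2907 nearest coding genes, of 8413 that were nearest to any enhancer. For 2365 of these genes there was 1 isolated enhancer, for 365 there were 2, and for 177 there were 3 or more. Isolated enhancers were the only kind at 1781 genes and occurred beside others at 1126. Of the 3018 genes that were nearest to a single enhancer, 1602 (53.1%) had an isolated one. Such genes have no second enhancer assigned to them, so this share is tied to the spacing that the rule used. An H3K4me3 peak was present at 69.8% of these 1602 genes (interval 67.5 to 72.0%) and at 71.5% (69.1 to 73.8%) of the genes whose single enhancer was not isolated, so these genes did not differ beyond the intervals.

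The genes with the most isolated enhancers were Csmd3, Dlg2, Lrrc4c and Robo1, with 8 each, and Cited2 and Nav3, with 7 each. In this order the first 4 genes were nearest to 16, 17, 10 and 24 enhancers in all, and Nav3 to 12. Csmd3 is a large transmembrane protein of neurons, Dlg2 a postsynaptic scaffold, Lrrc4c a synaptic adhesion protein, Robo1 a receptor for SLIT guidance cues, Nav3 a neuron navigator protein and Cited2 a transcriptional coregulator of CBP and p300. The first 4 genes span 738 to 1973 kb. All 8 isolated enhancers of Dlg2 were inside the gene, against 4 of 8 for Lrrc4c and Robo1 and 3 of 8 for Csmd3. Cited2 spans only 2.46 kb, and its 7 isolated enhancers lay 437 to 1348 kb from its TSS, among 46 enhancers nearest to this gene. Nav3 held 6 of its 7 isolated enhancers within the gene. An H3K4me3 peak lay at a TSS of each of these genes except Nav3.

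Over the whole set, the genes nearest to isolated enhancers were not longer than the others. The nearest coding gene had a median length of 56.7 kb for isolated and 67.0 kb for other enhancers, and the median over all coding genes was 17.4 kb.

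Lists of genes with known roles differed in how many of their nearest enhancers were isolated, against 11.4% overall. For neuronal adhesion and synapse genes, of which 44 of 90 had an H3K4me3 peak at a TSS, 89 of 238 enhancers were isolated (37.4%, interval 31.5 to 43.7%). They belonged to 35 of these genes, foremost Csmd3, Dlg2, Lrrc4c and the glutamate receptor gene Grik2, with 6 among 8. For cadherins and protocadherins the share was 22.2% (41 of 185), led by Cdh18 with 6 among 29. Cdh10, Cdh11 and Pcdh9 had 4 each, among 9, 17 and 9. Sensory receptor genes, which encode olfactory, vomeronasal, taste and trace amine receptors, had 24 of 83 (28.9%, interval 20.3 to 39.4%), each at a different gene and none of these genes with an H3K4me3 peak. Examples are Olfr1226 and Olfr1261 on chromosome 2, whose enhancers lay 769 and 479 kb from the nearest peak.

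Of the enhancers nearest to the lists of fibroblast transcription factors and extracellular matrix genes, a small share was isolated. An H3K4me3 peak lay at a TSS of 46 of 49 and 69 of 93 of these genes. For fibroblast transcription factors the share was 4.11% (22 of 535, interval 2.73 to 6.15%). Zeb2, a regulator of mesenchymal identity, had 4 among 17, at 296 to 1326 kb from its TSS. Ebf2, Klf4 and Klf5 had 2 each, among 2, 18 and 10. For extracellular matrix genes the share was 4.93% (24 of 487, 3.33 to 7.23%). The collagen genes Col3a1 and Col19a1 and the laminin genes Lama2 and Lama4 had 2 each, among 9, 2, 13 and 2. Developmental homeobox, Sox, Pax, T-box and Gata factors were nearer to the overall share, at 14.7% (50 of 339, 11.4 to 18.9%). Sox9 had 4 isolated enhancers among 30, the farthest at 608 kb, and Gata3 and Tbx3 had 3 each. Zfp genes stood at 12.1% (50 of 413), led by Zfp804a, whose 5 nearest enhancers were all isolated, followed by Zfp608, Zfp507 and Zfp770.

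Counted by genes, the order of the lists was different. At least 1 isolated enhancer was nearest to 2907 of 21670 coding genes (13.4%). This held for 35 of 90 neuronal genes (38.9%), 15 of 49 fibroblast transcription factors (30.6%), 32 of 147 developmental factors (21.8%), 19 of 93 matrix genes (20.4%) and 16 of 91 cadherins and protocadherins (17.6%). It held for 40 of 394 Zfp genes (10.2%) and 24 of 1514 sensory receptor genes (1.59%). The fibroblast transcription factor and matrix lists thus had a low share of isolated enhancers among many enhancers, and the sensory receptors a high share among few.

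**Figure D5:**
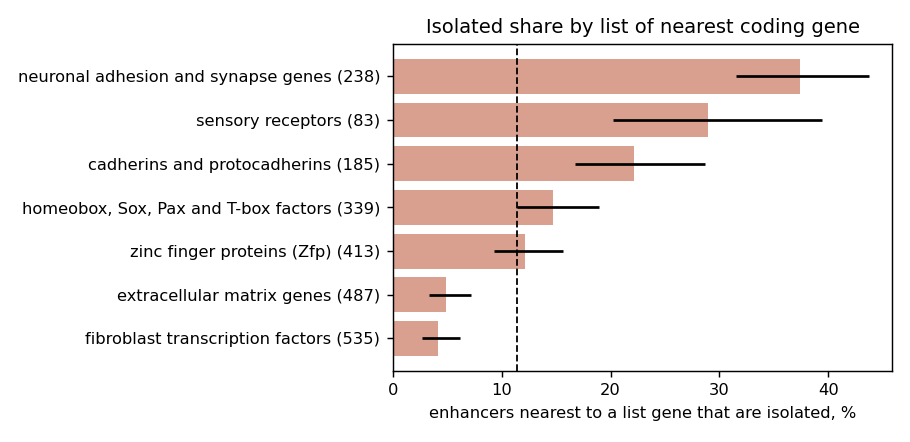
Share in % of the enhancers nearest to each list of coding genes that are isolated (bars) with Wilson 95% intervals (lines), the number of enhancers per list in parentheses and the 11.4% of all enhancers as a dashed line. The 3 uppermost lists lie wholly above the overall share, and the extracellular matrix and fibroblast transcription factor lists wholly below it. The intervals take no account of enhancers that share a nearest gene.

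The shares were also read among enhancers with 0 to 2 coding genes within 500 kb, where 19.3% of all enhancers were isolated. There the neuronal list stood at 40.7% (77 of 189, interval 34.0 to 47.9%) and the cadherins at 27.2% (37 of 136, 20.4 to 35.2%). The developmental factors were at 14.3% (25 of 175, 9.87 to 20.2%) and the matrix genes at 11.7% (7 of 60, 5.77 to 22.2%). The fibroblast transcription factors were at 5.19% (11 of 212, 2.92 to 9.05%). The intervals of the neuronal and cadherin lists lay above the share for gene-poor surroundings, and that of the fibroblast transcription factors below it. Several enhancers of a list can share a nearest gene and are not independent, which these intervals do not take into account. The intervals of the developmental and matrix lists included this share. Sensory receptor genes had only 2 enhancers in this class and 0 isolated ones. Their isolated enhancers had a median of 25 coding genes within 500 kb.

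The DNA of isolated enhancers was much like that of the others. The median GC content of the central 200 bp was 49% in both groups, and CpG dinucleotides had a median of 2. The windows 5 kb to the left had 42% GC for isolated and 44% for other enhancers, and this was lower on 18 of 20 chromosomes. The rule keeps listed enhancers out of these windows for isolated enhancers only. Part of the difference can therefore follow from the selection, and the size of this part was not tested. More than 50% annotated repeats in the centre were found in 444 isolated enhancers (11.8%, interval 10.8 to 12.9%) and in 7.35% of the others (7.06 to 7.65%), a direction seen on all 20 chromosomes. In repeats, short reads can map to several places, and the part of this in the listed positions was not tested.

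Matches to motifs of fibroblast transcription factors were counted in the central 200 bp on both strands. AP-1 matches (TGANTCA) were present in 573 isolated enhancers (15.3%, interval 14.2 to 16.5%) and 14.6% of the others (14.2 to 15.0%). N was any base, so forms other than TGACTCA and TGAGTCA were counted too. In windows 5 kb to the left of the isolated enhancers 5.60% held a match. The central 200 bp of 32851 RefSeq promoter sequences of 300 bp held one in 5.48%. TEAD matches (GGAATG) were found in 16.6 and 15.6% of isolated and other enhancers, against 10.2% of the windows to the left. For both motifs the intervals of isolated and other enhancers overlapped. For AP-1 the difference of 0.662 percentage points turned to -2.02 when whole enhancers were searched. AP-1 was also found in 17.8% (interval 14.7 to 21.3%) of the 529 enhancers beyond 200 kb from another. At 50 to 100 and 100 to 200 kb the shares were 14.9 and 14.7%. Among the other enhancers the share was 10.3% within 1 kb of another, 17.4% at 1 to 10 kb and 15.7% at 10 to 50 kb.

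Matches to the RUNX motif (TGTGGT) were somewhat less frequent, at 15.5% (14.4 to 16.7%) of isolated and 17.7% (17.2 to 18.1%) of other enhancers, but in the same direction on only 14 of 20 chromosomes. The windows 5 kb to the left held it in 14.1% (isolated) and 15.1% (other), so the isolated share was little above its surroundings, which were also lower. Here and below, windows beside other enhancers can hold a listed enhancer, which the rule excludes for isolated ones. The E-box CAGCTG was held by 13.7 and 14.7%, against 7.25 and 8.57% to the left, and the NFI site TTGGCA by 12.4 and 12.9%, against 9.33 and 9.76%. The full CRE (TGACGTCA) and CEBP (TTGCGCAA) motifs and the CTCF consensus were rare in both groups. They were held by 11, 1 and 6 of 3752 isolated enhancers (0.293, 0.0267 and 0.160%). For the others the shares were 0.229, 0.0205 and 0.134%. A match shows only that the letters are present, not that a factor was bound.

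Some isolated enhancers coincided with elements tested in mouse embryos. RefSeq holds 620 enhancers of the VISTA collection on this build, which are DNA fragments that drove a reporter gene in transgenic embryos. Of the isolated enhancers 18 (0.480%, interval 0.304 to 0.757%) overlapped such an element, against 176 others (0.602%, 0.520 to 0.698%). Heart activity was annotated for 7 of these 18 elements, eye for 5, limb and branchial arch for 4 each, facial mesenchyme, somite and midbrain for 3 each, hindbrain for 2, and forebrain, neural tube, nose and tail for 1 each. In percent of the 18 elements, of the 150 at other enhancers and of all 620, heart stood at 38.9, 31.3 and 25.6%, eye at 27.8, 8.67 and 6.77%, limb at 22.2, 34.0 and 28.1% and forebrain at 5.56, 22.7 and 26.9%. With 18 elements these shares are imprecise. Among them were the enhancer in an intron of Igsf3, 50.6 kb from its neighbour, whose element was active in limb, somite, branchial arch and facial mesenchyme, and one in Myocd, the gene of the cardiac and smooth muscle coactivator myocardin, whose element was active in heart. An enhancer in an intron of Gnb1l lay 31.7 kb from the TSS of the T-box gene Tbx1, and its element was active in limb, eye, heart and facial mesenchyme. The wide Cbx7 enhancer was also among the 18. These 3 examples and the overlap with VISTA elements were chosen after the values had been seen.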

How the data were processed

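The H3K4me3 libraries were processed by the authors with BWA, SAMtools, MACS2, deepTools and DESeq2 on mm10, per the labels. The deposited files used here are 2 lists of region positions, 25431 H3K4me3 peaks and 32965 putative enhancers. They hold no other measurement and 0 columns of per-sample values. The planned count test over time was therefore not made, and depth is unknown. Peak starts count from 0 and were raised by 1, since the narrowest peaks are then 200 bp, while enhancer starts were taken to count from 1. Peaks outside chromosomes 1 to 19 and X were left out.

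Distances to peaks are edge to edge. Distances to TSSs and gene counts were taken from the enhancer centre, with GENCODE M21. Coding TSSs were those of protein-coding transcripts of 21670 genes. Gene counts used the outer 5′ end of all 21755 coding genes. The study named M25, which was not used here. Promoter sequences, VISTA elements, repeats and motif windows came from RefSeq GRCm38.p6. Medians have order-statistic and shares Wilson 95% intervals, computed with Python 3.11.15, NumPy 2.4.6, SciPy 1.17.1 and pandas 2.3.3. Interval and motif functions were tested on simulated data (0 of 4800 and 0 of 1600 queries wrong).

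Enhancers are named if they are the 5 farthest from another enhancer, the 5 widest, the 5 farthest from a peak, the 3 with the widest peak overlap, the 3 farthest from a TSS, the 3 with most genes, the 3 on each side of 50 kb or the 3 with most AP-1 matches. Named genes are the 5 with most isolated enhancers, ties by symbol, and up to 4 per list. Nav3, tied for the last place, was added after its values were seen. A gene that the rule names is not reported here. The members and the 7 gene lists were chosen with earlier results of these data known. The classes beyond 100 kb, the gene-density classes and the separate reading of chromosome X were added after seeing the data. Alternatives covered the isolation distance, merging of close enhancers, peak and gene sets, windows and chromosomes.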

Additional observations from a re-analysis of the deposited data

Results flagged for a closer look

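The list held 77 H3K4me3 peaks outside chromosomes 1 to 19 and X, where no enhancer is listed. They entered no distance or overlap above, and were picked out because they are signal in data that no comparison used.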

How the results depend on the processing

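No paired analysis was possible because neither list came with a value for any library. For the same reason no replicate could be left out. Of 51 alternatives, 28 gave a value within the interval of the reported one (for counts, within 1.5 times), 21 moved and 2 reversed. When enhancers within 1 and 5 kb of each other were merged first, 4360 and 4716 regions were isolated, against 3752 as reported. With limits of 25 and 100 kb in place of 50 kb, 7298 and 1569 enhancers were isolated. Isolated minus other, these limits gave differences of the medians of -22 and -79 bp in width, 1.51 and 28.9 kb in TSS distance, 7.57 and 44.6 kb in peak distance, and 0 and -2 in coding genes. The share whose nearest gene had a peak differed by -3.76 and -9.03 percentage points, and at 100 kb the GC content differed by -0.5 and the share inside genes by -9.78 points. Merging enhancers within 5 kb gave -202 bp in width, with the unlisted stretches between merged enhancers included. The distance to gene bodies differed by 1.31 kb. The peak distance differed by 21.1 kb with peaks of at least 500 bp, by 21.3 kb with peaks at coding TSSs and by 81.4 kb with peaks away from all TSSs. The gene number differed by 0 within 250 kb and by -2 within 1 Mb. The difference in AP-1 share, 0.662 points as reported, reversed to -0.322 with enhancers within 5 kb merged and to -2.02 over whole enhancers. Isolated enhancers are narrower, and whether width has a part in the second reversal was not tested.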
